A study of Homo sapiens with 9 samples.

Results

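The genes described here are 31 genes of cholesterol and fatty acid synthesis, taken from a list of symbols and followed through 9 mRNA sequencing libraries. Each symbol matched 1 gene among the 59294 genes with a transcript in the data, and all 31 had enough reads to be tested, among 15139 genes tested. They comprise 18 enzymes of cholesterol synthesis, 5 genes of sterol sensing and sterol transport, and 8 genes of fatty acid synthesis, elongation and desaturation. The list does not hold every enzyme of these pathways.

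The libraries came from MCF10A-YAP cells, derived from MCF10A, an immortalised and non-transformed line of human breast epithelial cells, and carrying a constitutively active form of YAP, the effector of the Hippo pathway. All 3 groups carried this YAP and were selected with antibiotic after transduction, and all were grown in medium with horse serum, EGF, insulin and hydrocortisone. The control group received a non-targeting sgRNA, and the other groups received TRAM2-KO1 or TRAM2-KO2, sgRNAs against TRAM2, with 3 libraries (A, B and C) in each group. The cultures were sequenced as pools of cells, so a lower mean cannot be told apart from a change in a share of the cells, and fewer cells of a type cannot be told apart from less RNA per cell. The series text calls the replicates biological but does not describe the separate cultures, so p values measure the spread between these libraries. Values of a group are given throughout in the order of libraries A, B and C, and SE stands for the standard error of the fold change on the log2 scale.

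Cholesterol is built from acetyl-CoA in the cytosol and the endoplasmic reticulum (ER): HMG-CoA and mevalonate are made first, isoprenoid units are joined into squalene, and squalene is closed into lanosterol and trimmed to cholesterol. Fatty acids come from the same acetyl-CoA, are built by fatty acid synthase, and are then lengthened and desaturated in the ER. Transcription of most of these genes is driven by the SREBP factors, which are carried from the ER to the Golgi by SCAP and held in the ER by INSIG proteins when sterols are plentiful. TRAM2 belongs to the translocon, the channel through which proteins enter the ER. The comparisons ask whether targeting TRAM2 was accompanied by a change in the mRNA of this ER-bound pathway.

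TRAM2 mRNA stood at 464 to 481 CPM (counts scaled to the size of the library) in control libraries, 203 to 219 CPM with TRAM2-KO1 and 210.5 to 216 CPM with TRAM2-KO2, so neither knockout group overlapped the controls. The change was -55.5% with TRAM2-KO1 and -55.1% with TRAM2-KO2, so the mRNA was reduced and not absent, and the comparisons concern a partial reduction.

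Libraries held 21.7 to 27.6 M estimated reads, the fewest in TRAM2-KO1 B. Markers of epithelium were abundant, with summed levels of 4280 to 4397 TPM in controls, 3875 to 3988 with TRAM2-KO1 and 4594 to 4655 with TRAM2-KO2, although TP63, a defining gene of basal cells, was under 0.5 TPM throughout. Of the 9 tested epithelial markers, 0 rose and 2 fell with TRAM2-KO1 by the adjusted test, against 0.753% and 2.15% of all genes. With TRAM2-KO2, 4 rose and 1 fell, against 1.73% and 2.49%. Between the guides 6 were higher and 0 lower with TRAM2-KO2, against 1.41% and 0.865%. Of 8 adipocyte markers 7 were under 0.5 TPM in every library, as were 5 of 8 fibroblast markers, 3 of 5 blood cell markers and 6 of 10 markers of secretory luminal cells, including the milk protein genes CSN2, CSN3 and LALBA. With its other 4 genes the luminal list summed to 1071 to 1091 TPM in controls, 1116 to 1228 with TRAM2-KO1 and 1151 to 1203 with TRAM2-KO2. The sums of all 6 knockout libraries thus lay above the controls, but single genes differed in direction. Of the 4 tested genes of the list, 2 were higher and 2 lower with TRAM2-KO1, and 3 higher and 1 lower with TRAM2-KO2. With either guide 0 of them passed the adjusted test, and the part of cell types in the results was not tested. Libraries also differed in GC content: across all 15139 tested genes, the Spearman correlation of a library's deviation from the mean with the GC content of the gene was -0.53 in TRAM2-KO1 B and -0.36 in TRAM2-KO1 C. It was 0.18 in TRAM2-KO1 A, 0.14 to 0.25 in controls, and 0.40, 0.17 and -0.09 in the TRAM2-KO2 libraries.

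Against control, the 31 genes changed little with either guide. With TRAM2-KO1, 2 members rose, CYP51A1 and ELOVL5, both by less than 10 percent, and 0 fell by edgeR's quasi-likelihood test at an adjusted p under 0.05. Over all genes tested, 0.753% rose and 2.15% fell. The median log2 fold change of the members was 0.06, against 0.01 over all genes, and single members ranged from -0.40 to 0.13. No member passed the study's limit of a log2 fold change beyond 0.5, which 0.482% of all genes passed. At an unadjusted p under 0.05, 11 members (35.5%) were higher and 5 (16.1%) lower, against 8.51% and 10.0% of all genes. DESeq2 found the same 2 members and 0 that fell, among 664 genes that passed with it.

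With TRAM2-KO2, 0 members rose and 0 fell by edgeR, and DESeq2 found 0 as well, among 652 genes that passed with it. The background was 1.73% of genes that rose, 2.49% that fell and 0.647% that passed the limit of 0.5. At an unadjusted p under 0.05, 3 members or 9.68% were higher (CYP51A1, ELOVL5 and SREBF2) and 0 lower, where all genes gave 6.84% and 8.18%. The median log2 fold change was 0.03 against 0.00 over all genes, with a range of -0.10 to 0.14. The spread of the members' fold changes (SD) was 0.0599 with TRAM2-KO2 and 0.145 with TRAM2-KO1.

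Between the guides, 0 members differed by edgeR, whereas 1.41% of all genes were higher and 0.865% lower with TRAM2-KO2, and 0.476% passed the limit of 0.5. At an unadjusted p under 0.05, 5 members (16.1%) were higher and 7 (22.6%) lower, against 10.3% and 9.54% of all genes. DESeq2 found 1 member, MVK, to differ (log2 fold change 0.37, adjusted p = 0.031), among 594 genes that passed with it. The comparisons share control or TRAM2-KO1 libraries, so their values are given side by side and are not independent.

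The intervals show what size of change these libraries leave room for. The 95% interval of the log2 fold change lay inside 0.5 in either direction for 29 of 31 members with TRAM2-KO1 (the exceptions were MVD and FASN), for 31 with TRAM2-KO2 and for 26 between the guides. It lay inside 0.25 for 22, 25 and 22 members. Of all 15139 genes tested, 10649, 10897 and 10614 had an interval inside 0.5, and 6721, 7168 and 6747 had one inside 0.25. The plot of fold changes with their intervals gives every member.

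**Figure D1:**
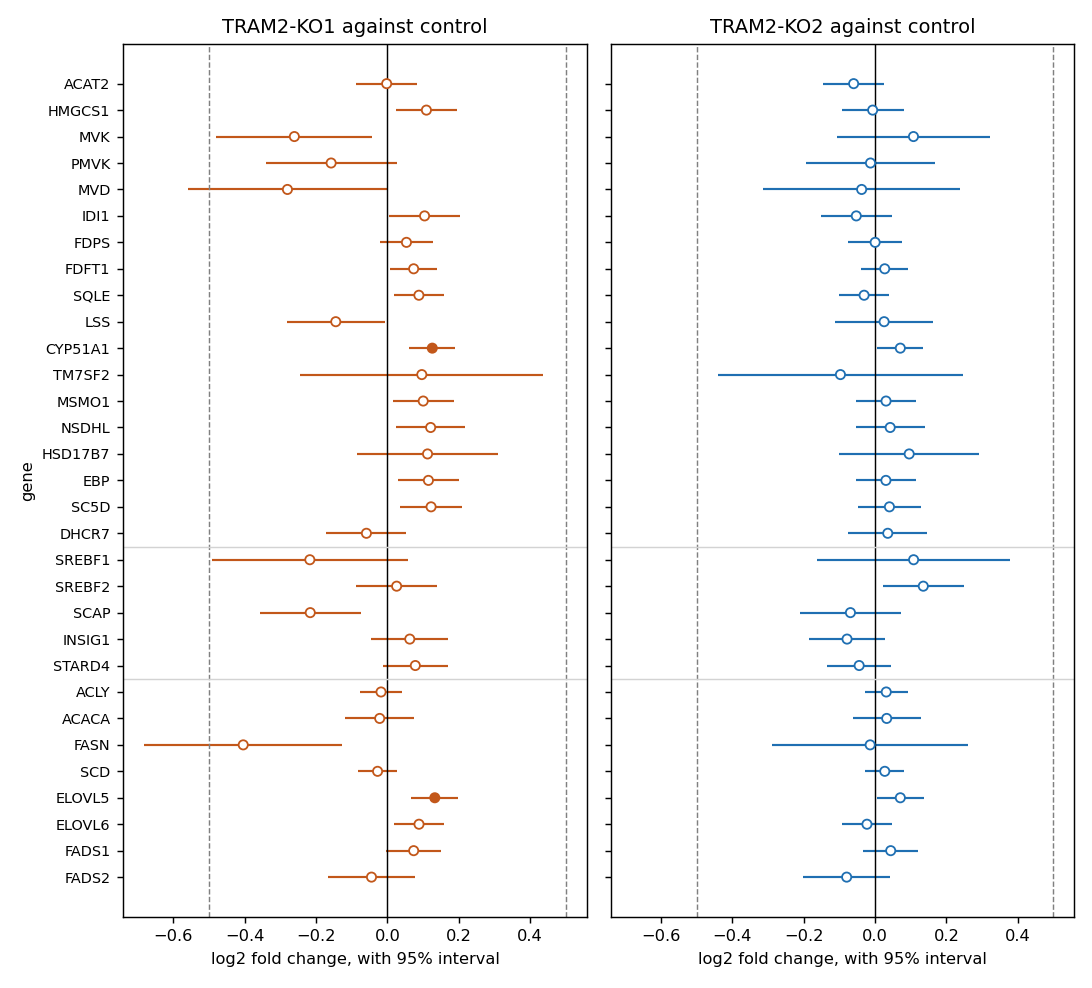
Log2 fold change of each of the 31 genes (rows) against control, with its 95% interval, for TRAM2-KO1 (left) and TRAM2-KO2 (right). Filled points have an adjusted p under 0.05 (CYP51A1 and ELOVL5 at left, none at right), dashed lines mark 0.5 in either direction, and FASN at -0.40 is the lowest point.

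By library, 13 members were higher in all 3 TRAM2-KO1 libraries than in all 3 controls and 3 (MVK, SCAP and FASN) were lower. These were 41.9% and 9.68% of the members, beside 11.9% and 11.1% of all genes. With TRAM2-KO2, 9 members were above all controls and 1, ACAT2, was below, beside 11.3% and 12.3% of all genes. Between the guides 4 members lay above and 9 below with TRAM2-KO2, beside 9.51% and 11.9%. Between replicates the median coefficient of variation of the members was 2.07% in controls, 4.37% with TRAM2-KO1 (at most 23.0%) and 3.10% with TRAM2-KO2, so separation of the groups often came with a small difference.

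The 18 cholesterol enzymes lay at a median of 0.09 with TRAM2-KO1 and 0.03 with TRAM2-KO2 on the log2 scale. Their summed level was 2030 to 2033 CPM in controls, 2082, 2157 and 2103 CPM with TRAM2-KO1, and 2030.2, 2053 and 2063 CPM with TRAM2-KO2. All 3 TRAM2-KO1 sums lay above the controls, whereas TRAM2-KO2 A lay within them. The highest sum was in TRAM2-KO1 B, the library with the lowest GC correlation, and the part of GC content in the sum was not tested.

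**Figure D2:**
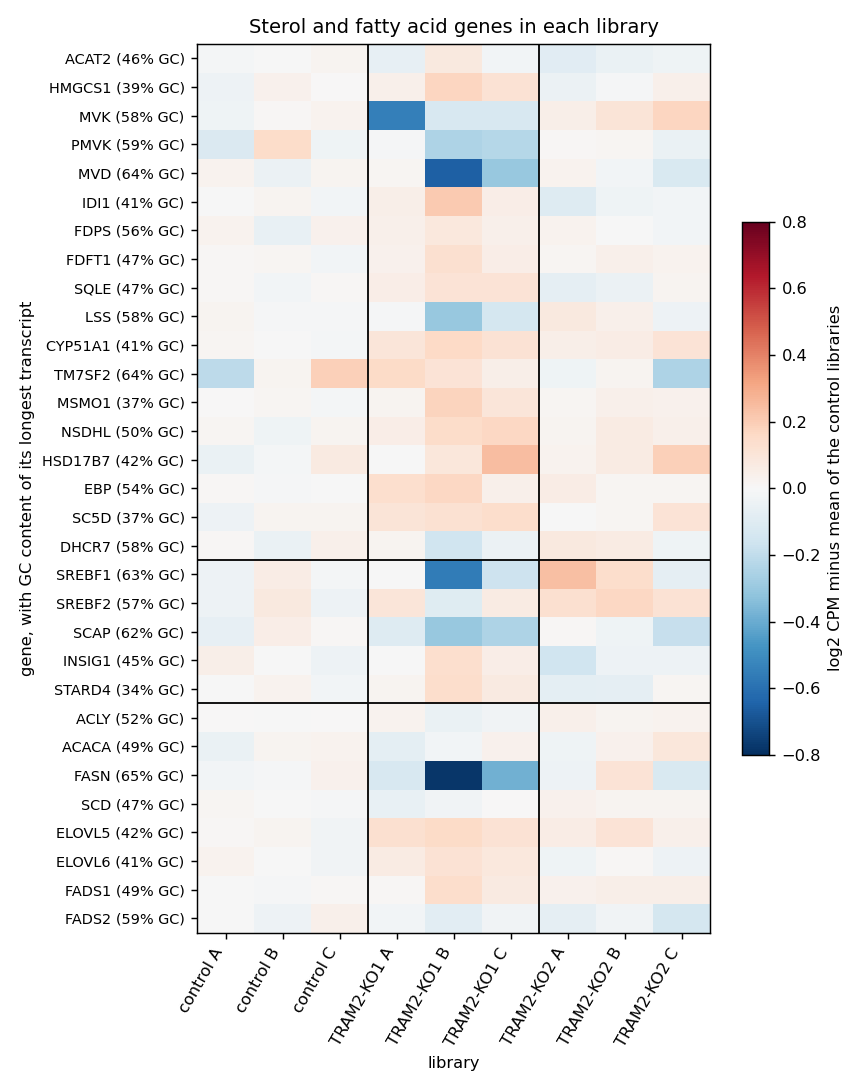
Deviation of log2 CPM from the mean of the controls for the 31 genes (rows, with the GC content of the longest transcript) in each of 9 libraries (columns). Horizontal lines separate cholesterol enzymes, sterol sensing and transport, and fatty acid genes. The column of TRAM2-KO1 B holds the deepest blue cells, in FASN and MVD, beside pale red cells in most genes of low GC content.

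CYP51A1, which removes a methyl group from lanosterol and so opens the trimming of the sterol ring, was the cholesterol enzyme that rose with TRAM2-KO1. It measured 245, 242 and 240.1 CPM in controls, 259, 271 and 263 CPM with TRAM2-KO1 and 249.9, 253 and 261 CPM with TRAM2-KO2. All 6 knockout libraries lay above all 3 controls. The log2 fold change was 0.13 (adjusted p = 0.048, SE 0.0290, with a 95% interval from 0.06 to 0.19) with TRAM2-KO1 and 0.07 (adjusted p = 0.273, SE 0.0290) with TRAM2-KO2. Its call did not hold when any 1 library other than TRAM2-KO1 A was left out, with adjusted p values of 0.0646 without TRAM2-KO2 A, 0.10 without TRAM2-KO2 B, 0.061 without TRAM2-KO2 C, 0.137 without TRAM2-KO1 B or C, 0.167 without control A and 0.200 without control B or C.

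HMGCS1, which makes HMG-CoA at the head of the mevalonate pathway, measured 162, 169.9 and 167 CPM in controls. With TRAM2-KO1 it was at 171, 187 and 179.7 CPM and with TRAM2-KO2 at 160.5, 165 and 171 CPM. The TRAM2-KO1 libraries lay just above the controls and the TRAM2-KO2 libraries spread across them. Its log2 fold change was 0.11 (adjusted p = 0.178, SE 0.0390) with TRAM2-KO1 and -0.01 (adjusted p = 0.97, SE 0.0391) with TRAM2-KO2.

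SQLE, the squalene epoxidase that catalyses the first oxygen-dependent step, measured 221, 216 and 220.3 CPM in controls, 227, 236 and 236 CPM with TRAM2-KO1 and 208.5, 212 and 222 CPM with TRAM2-KO2. The TRAM2-KO1 libraries were higher than every control, and those of TRAM2-KO2 overlapped them. The log2 fold changes were 0.09 (adjusted p = 0.182, SE 0.0319) and -0.03 (adjusted p = 0.770, SE 0.0319).

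The other 15 enzymes can be read in the order of the pathway, none passing the test. ACAT2, which joins acetyl-CoA units, had a log2 fold change of 0.00 with TRAM2-KO1 and -0.06 with TRAM2-KO2. The mevalonate kinases MVK and PMVK and the decarboxylase MVD had values of -0.26, -0.16 and -0.28 with TRAM2-KO1 and 0.11, -0.01 and -0.04 with TRAM2-KO2. Next came the isomerase IDI1 (0.10 and -0.05) and the synthases FDPS (0.05 and 0.00) and FDFT1 (0.07 and 0.03), which build farnesyl diphosphate and squalene. In each of these genes every TRAM2-KO1 library lay above every control. For IDI1 every TRAM2-KO2 library also lay below every TRAM2-KO1 library, with -0.16 between the guides (adjusted p = 0.102 by edgeR). LSS, which closes squalene epoxide into lanosterol, had -0.14 and 0.03. Of the enzymes that trim lanosterol, MSMO1 (0.10 and 0.03), NSDHL (0.12 and 0.04), HSD17B7 (0.11 and 0.10), EBP (0.11 and 0.03) and SC5D (0.12 and 0.04) were positive with both guides. DHCR7, which completes cholesterol, had -0.06 and 0.04. TM7SF2, a sterol reductase, had 0.10 and -0.10 and was scarcely expressed, at 1.8 to 2.5 CPM.

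The low values of MVD, MVK and LSS were picked out after their values had been seen. Those of MVD and LSS were lowest in the same library, and that of MVK in another. MVD measured 45.6, 43.4 and 45.4 CPM in controls, 45.4, 28.5 and 36.3 CPM with TRAM2-KO1 and 45.7, 44.2 and 41.1 CPM with TRAM2-KO2. LSS measured 108, 105 and 105 CPM in controls, 105, 85.9 and 96.2 CPM with TRAM2-KO1 and 112, 109 and 103 CPM with TRAM2-KO2. In both genes TRAM2-KO1 A lay among or next to the controls and TRAM2-KO1 B was the lowest library. MVK was instead lowest in TRAM2-KO1 A, at 14.7 CPM, against 19.6 CPM in each of TRAM2-KO1 B and C, 20.9 to 21.9 CPM in controls and 22.2 to 24.2 CPM with TRAM2-KO2.

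Sterol sensing and the SREBP factors come next. SREBF1, which encodes the factor most tied to fatty acid genes, measured 23.0, 24.6 and 23.4 CPM in controls, 23.7, 16.0 and 21.1 CPM with TRAM2-KO1 and 28.0, 26.1 and 22.5 CPM with TRAM2-KO2. Each knockout group overlapped the controls, and TRAM2-KO1 B stood apart below. Its log2 fold change was -0.22 (adjusted p = 0.379, SE 0.124) with TRAM2-KO1 and 0.11 (adjusted p = 0.794, SE 0.122) with TRAM2-KO2.

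SREBF2, whose product is the main activator of the cholesterol enzymes, measured 143, 155 and 143 CPM in controls, 157, 138 and 154 CPM with TRAM2-KO1 and 161, 165 and 159 CPM with TRAM2-KO2. All TRAM2-KO2 libraries lay above the controls, while those of TRAM2-KO1 spread across them. The log2 fold change was 0.03 (adjusted p = 0.830, SE 0.0515) with TRAM2-KO1 and 0.14 (adjusted p = 0.228, SE 0.0513, with a 95% interval from 0.02 to 0.25) with TRAM2-KO2. After the GC trend per library was removed, the TRAM2-KO2 value of 0.14 had an adjusted p of 0.045.

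SCAP, the escort of the SREBP factors out of the ER, measured 52.4, 57.0 and 55.2 CPM in controls, 51.0, 44.3 and 46.2 CPM with TRAM2-KO1 and 55.1, 53.5 and 48.3 CPM with TRAM2-KO2. All TRAM2-KO1 libraries were below the controls and TRAM2-KO2 overlapped them, with log2 fold changes of -0.22 (adjusted p = 0.112, SE 0.0641) and -0.07 (adjusted p = 0.722, SE 0.0634). With the GC trend removed the TRAM2-KO1 value was -0.04, and without TRAM2-KO1 A it was -0.28 with an adjusted p of 0.0187.

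INSIG1, which holds SCAP in the ER and is itself an SREBP target, measured 59.7, 57.8 and 56.3 CPM in controls, 57.8, 63.7 and 60.2 CPM with TRAM2-KO1 and 51.9, 56.3 and 56.4 CPM with TRAM2-KO2. Each knockout group overlapped the controls, with log2 fold changes of 0.06 (adjusted p = 0.529, SE 0.0484) and -0.08 (adjusted p = 0.529, SE 0.0485). All 3 TRAM2-KO2 libraries lay below all 3 of TRAM2-KO1, with a log2 fold change of -0.14 (adjusted p = 0.156, SE 0.0484) between the guides. STARD4, a carrier of cholesterol between membranes, had log2 fold changes of 0.08 and -0.04, neither past the test.

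**Figure D3:**
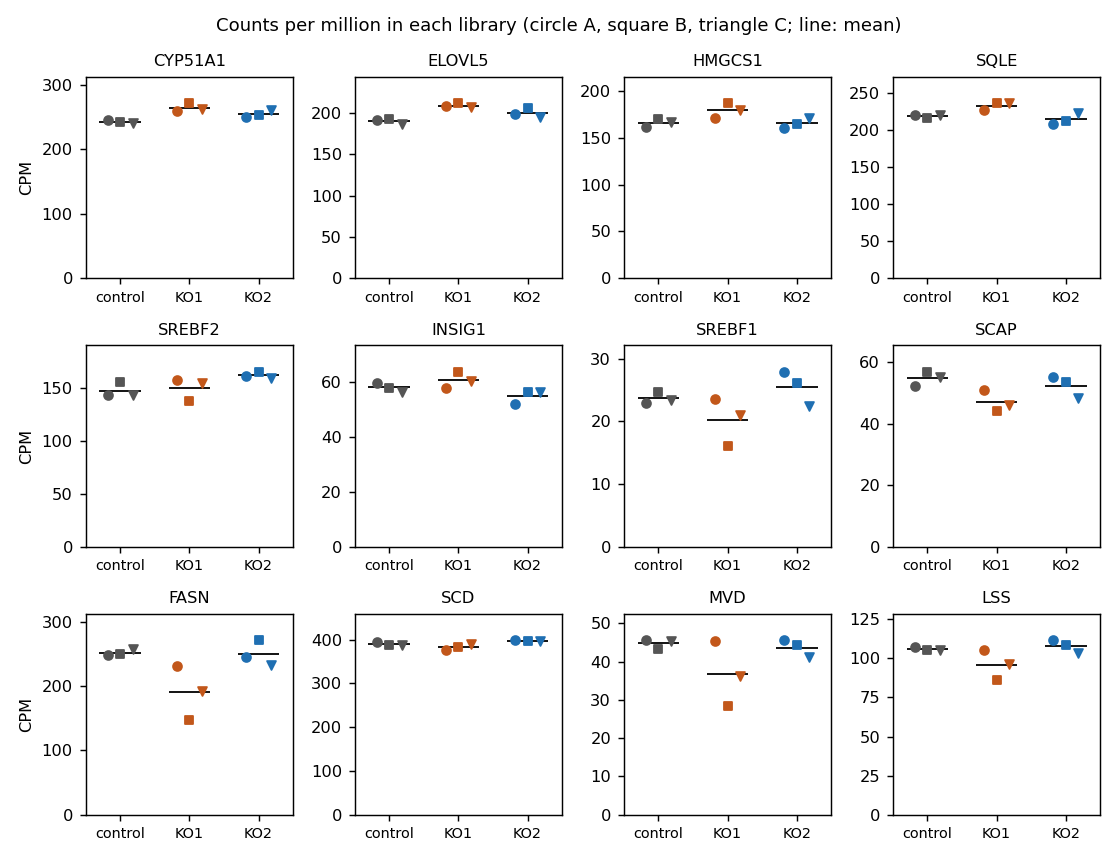
CPM of 12 of the genes in each library, with the axis from 0, colours for the 3 groups, circles, squares and triangles for libraries A, B and C, and a line at each group's mean. The square of TRAM2-KO1 lies lowest in SREBF1, SCAP, FASN, MVD and LSS, while CYP51A1 and ELOVL5 differ little from control in any library.

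Among the 8 fatty acid genes, ELOVL5 rose with TRAM2-KO1. This elongase, which lengthens polyunsaturated fatty acids, measured 192, 193 and 186 CPM in controls, 208, 212 and 207 CPM with TRAM2-KO1 and 199, 206 and 196 CPM with TRAM2-KO2. All 6 knockout libraries were above the controls. The log2 fold change was 0.13 (adjusted p = 0.0421, SE 0.0297, with a 95% interval from 0.07 to 0.20) with TRAM2-KO1 and 0.07 (adjusted p = 0.286, SE 0.0297) with TRAM2-KO2. As for CYP51A1, leaving out any 1 library other than TRAM2-KO1 A ended the call, with adjusted p values of 0.0655 without TRAM2-KO2 A, 0.0563 without TRAM2-KO2 B, 0.0597 without TRAM2-KO2 C, 0.0896 without TRAM2-KO1 B, 0.103 without TRAM2-KO1 C, and 0.140, 0.119 and 0.179 without control A, B and C.

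FASN, the fatty acid synthase, had the lowest fold change of the 31 genes. It measured 248, 251 and 258 CPM in controls, 231, 147 and 193 CPM with TRAM2-KO1 and 245, 272 and 232 CPM with TRAM2-KO2. All 3 TRAM2-KO1 libraries were below the controls, but they spread far more than these, with a coefficient of variation of 22% against 2.0%. The log2 fold change with TRAM2-KO1 was -0.40 (adjusted p = 0.127, SE 0.125, with a 95% interval from -0.68 to -0.13), and with TRAM2-KO2 it was -0.01 (adjusted p = 0.984, SE 0.124). Without TRAM2-KO1 A it was -0.57 (adjusted p = 0.00636), and with no filter on low counts the call also passed, at -0.40 (adjusted p = 0.00638). With the GC trend removed it was -0.17 (adjusted p = 0.191).

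SCD, the desaturase that makes monounsaturated fatty acids, measured 394, 389 and 388 CPM in controls, 375, 383 and 390.3 CPM with TRAM2-KO1 and 399.5, 397 and 397 CPM with TRAM2-KO2. The TRAM2-KO2 libraries lay just above the controls, and TRAM2-KO1 overlapped them. The log2 fold changes were -0.03 (adjusted p = 0.598, SE 0.0249) and 0.03 (adjusted p = 0.718, SE 0.0249), among the narrowest intervals of the list.

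The other 5 fatty acid genes did not pass the test. ACLY, which supplies cytosolic acetyl-CoA, had log2 fold changes of -0.02 with TRAM2-KO1 and 0.03 with TRAM2-KO2, and ACACA, the carboxylase that makes malonyl-CoA, had -0.02 and 0.03. The elongase ELOVL6 had 0.09 and -0.02. The desaturases FADS1 and FADS2 had 0.07 and -0.04 with TRAM2-KO1 and 0.04 and -0.08 with TRAM2-KO2.

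The fold changes with TRAM2-KO1 followed the GC content of the genes. Across the 31 members, which share their libraries, Spearman's rho between GC content and log2 fold change was -0.73 with TRAM2-KO1 and -0.10 with TRAM2-KO2, beside -0.41 and -0.01 across all 15139 genes. GC content ran from 34.4% in STARD4 to 65.3% in FASN. In classes set after the values were seen, all 10 members under 45% GC were positive with TRAM2-KO1, with a median of 0.11 against 0.05 in other genes of that class. Of 12 members with 55% GC or more, 9 were negative, with a median of -0.15 against -0.12 in other genes. With TRAM2-KO2 these classes had 5 of 10 positive and 6 of 12 negative. After the GC trend per library was removed, rho with TRAM2-KO1 was -0.27 across the members, the SD of their fold changes went from 0.145 to 0.0927, the median was 0.05, and 0 members rose or fell by edgeR. CYP51A1 then had 0.08 (adjusted p = 0.0576) and ELOVL5 0.09 (adjusted p = 0.139) with TRAM2-KO1. In the same fit 2 members rose with TRAM2-KO2, SREBF2 and CYP51A1, the latter by 0.08 (adjusted p = 0.0458). Over all 15139 genes, that fit gave 140 that rose and 386 that fell with TRAM2-KO1. With TRAM2-KO2 it gave 519 and 554, more than the 262 and 377 without the GC trend removed.

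**Figure D4:**
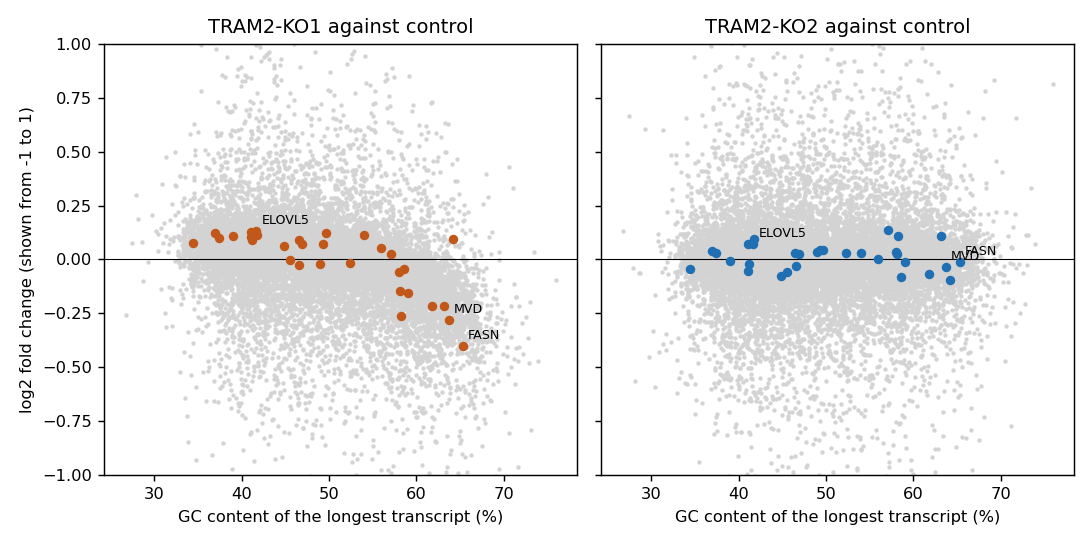
Log2 fold change against GC content of the longest transcript for all 15139 genes tested (grey) and the 31 members (colour), with TRAM2-KO1 at left and TRAM2-KO2 at right. The axis ends at 1 in either direction and leaves out 165 and 179 genes. With TRAM2-KO1 the coloured points descend toward FASN at 65.3% GC, and with TRAM2-KO2 they lie flat around 0.

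The contrast between libraries was sharpest for 1 library. Without TRAM2-KO1 A, the only TRAM2-KO1 library whose GC correlation resembled the controls, 5 members rose with TRAM2-KO1 (CYP51A1, ELOVL5, MSMO1, HMGCS1 and NSDHL) and 4 fell (SCAP, LSS, MVD and FASN). All genes with an adjusted p under 0.05 went from 440 to 1952 at the same time. Those that rose had 37.4% to 49.6% GC and those that fell 58.1% to 65.3%. The part of GC content in these calls was not tested beyond the fit with the trend removed.

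Levels were compared between genes in TPM, a scaled share of transcripts that takes their length into account. FDFT1, the squalene synthase, was the most abundant member in controls at 419 ± 6.24 TPM (SD, n = 3), followed by FDPS at 210.5 ± 7.95 TPM, with no overlap between their libraries. ACLY (135 ± 6.19 TPM), MSMO1 (131 ± 2.21 TPM) and ACAT2 (128 ± 2.47 TPM) came next and overlapped one another. EBP, CYP51A1 and SQLE followed at 108, 106 and 104.5 TPM, where CYP51A1 overlapped each of the others but every EBP library was above every SQLE library.

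The middle of the order held ELOVL5, MVD, SCD, HMGCS1, IDI1, DHCR7, FASN and SREBF2, at 88.1 down to 53.9 TPM. Below them were ELOVL6, SC5D, STARD4, FADS1, LSS, NSDHL, PMVK, INSIG1, ACACA, SCAP, MVK and SREBF1, from 42.7 to 19.9 TPM. FADS2, HSD17B7 and TM7SF2 were the lowest, at 8.48, 8.08 and 3.65 TPM. Regulators were thus present at lower levels than most enzymes, with SREBF2 at 53.9, INSIG1 at 25.5, SCAP at 24.5 and SREBF1 at 19.9 TPM.

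**Figure D5:**
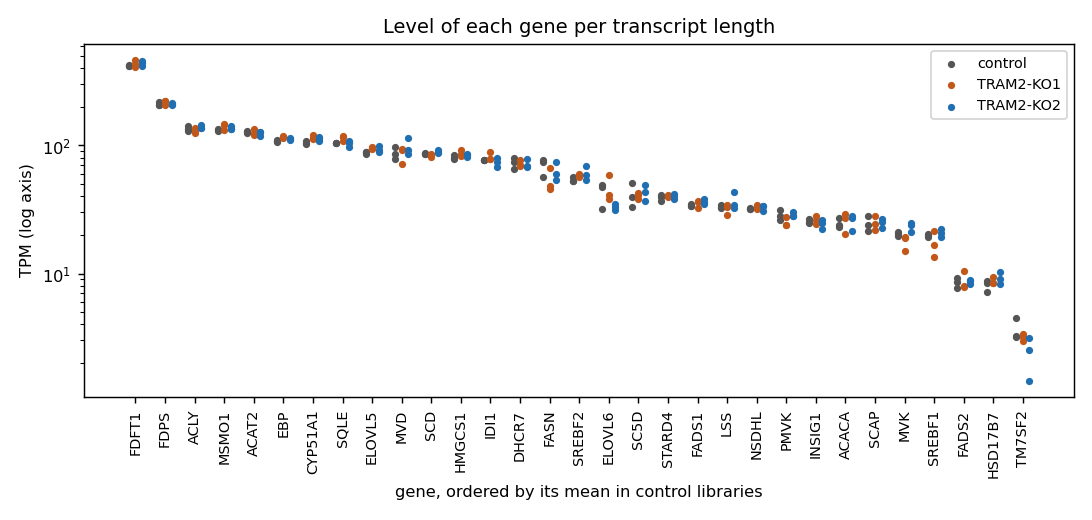
TPM (log axis) of each gene in each of the 9 libraries, ordered by the mean in controls and coloured by group. FDFT1 leads at 419 TPM and TM7SF2 is last at 3.65 TPM, and ELOVL6 has a wide spread, from 31.3 to 58.9 TPM.

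These levels rest on how reads were assigned to transcripts. For 21 members the same transcript was the most abundant in all 9 libraries, and 18 of these were protein coding. For 10 it changed between libraries. In ACAT2, EBP, FDPS and MVD the main transcript was short and not classed as protein coding, at 856, 904, 680 and 507 nt. It held 57.6% to 60.9%, 40.7% to 55.8%, 29.1% to 37.1% and 23.1% to 42.3% of the gene's TPM. The places of these genes in the order are thus not those of their coding transcripts alone. In PMVK and SCD 1 transcript held over 90 percent of the gene's TPM in every library. SREBF1 was spread over 24 transcripts, with a 698-nt retained-intron transcript holding 10.8% to 37.9%, so its TPM is less certain than its CPM. For ELOVL6 the share of its main transcript ranged from 50.5% to 91.3%, and its TPM from 31.3 to 58.9 while its CPM stayed between 86.6 and 96.6.

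Promoters of the members were searched for the letters TCACNCCAC, a form of the sterol element that SREBP factors bind, and for CCAAT, the box that NF-Y binds beside it, on both strands. RefSeq windows on GRCh38.p14, from 250 bases before to 50 after the start, matched 27 of the 31 members with 36 windows. ACAT2, FDFT1, SQLE and FASN had none. The sterol letters were in 1 of 36 windows, that of SREBF2, against 1.13% of all 35116 windows. CCAAT was in 25 of 36 windows (69.4%), belonging to 21 members, against 34.6% of all windows, and 17 windows held it more than once, against 10.8% of all. A match is a description of letters and not a site of binding.

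The upstream stretches shown are those of SREBF2, ELOVL5 and MSMO1. SREBF2 was the only member with the sterol letters among the 27 that had a window. ELOVL5 rose with TRAM2-KO1, and MSMO1 is an enzyme with 4 CCAAT boxes. Capitals mark the sterol letters and CCAAT, which reads ATTGG where it lies on the other strand.
SREBF2: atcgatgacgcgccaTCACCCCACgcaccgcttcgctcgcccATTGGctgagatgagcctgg
ELOVL5: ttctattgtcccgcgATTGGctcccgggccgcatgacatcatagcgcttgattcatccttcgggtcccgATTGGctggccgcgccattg
MSMO1: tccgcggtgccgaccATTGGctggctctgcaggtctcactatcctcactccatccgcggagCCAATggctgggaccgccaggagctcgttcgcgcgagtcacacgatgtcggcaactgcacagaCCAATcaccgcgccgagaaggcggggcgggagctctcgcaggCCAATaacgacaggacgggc
On GRCh38.p14 these are chr22:41832957-41833018 on the plus strand, chr6:53348999-53349087 on the minus strand and chr4:165327469-165327654 on the plus strand, each written 5′ to 3′ along its gene. In SREBF2 the sterol letters began 133 bases before the start. CYP51A1, the other member that rose, had neither set of letters in its window.

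Other genes of the pathway were followed in 5 lists of 88 genes. These lists were chosen with earlier results of these data known, so their counts beside the background are a description only. In the list of SREBP processing and sterol-regulated degradation, 2 of 14 genes fell with each guide, where all genes gave 2.15% and 2.49%. They were ERLIN1 and ERLIN2, which encode partner proteins of the ER membrane that help to send sterol-regulated proteins to degradation. ERLIN1 measured 165, 158 and 160.0 CPM in controls, 136, 148 and 141 CPM with TRAM2-KO1 and 141, 139 and 139 CPM with TRAM2-KO2. ERLIN2 measured 154, 146 and 146 CPM in controls, 132, 137.5 and 135 CPM with TRAM2-KO1 and 134, 131 and 133 CPM with TRAM2-KO2. In both genes all 6 knockout libraries lay below all controls.

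For ERLIN1 the log2 fold change was -0.18 (adjusted p = 0.0201, SE 0.0353) with TRAM2-KO1 and -0.21 (adjusted p = 0.00745, SE 0.0352) with TRAM2-KO2. For ERLIN2 it was -0.14 (adjusted p = 0.0464, SE 0.0323) and -0.17 (adjusted p = 0.0167, SE 0.0322). With the GC trend removed, ERLIN1 had -0.21 and -0.20 and ERLIN2 -0.18 and -0.16, all past the test. With TRAM2-KO2, ERLIN1 passed with each library left out. The other calls depended on single libraries. With TRAM2-KO1, the adjusted p of ERLIN1 was 0.0813 without control A, 0.0593 without control C and 0.0600 without TRAM2-KO1 C, and that of ERLIN2 was 0.0624 to 0.160 without any 1 control, TRAM2-KO1 C or any 1 TRAM2-KO2 library. With TRAM2-KO2, ERLIN2 had 0.0808 without control A, 0.0793 without TRAM2-KO2 B and 0.0639 without TRAM2-KO2 C. The median of the list was 0.06 with TRAM2-KO1 and 0.04 with TRAM2-KO2.

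Among 27 tested genes of other fatty acid and glycerolipid synthesis, 1 rose with TRAM2-KO1 and 3 with TRAM2-KO2, where 0.753% and 1.73% of all genes rose, and 0 fell. HACD2, a dehydratase of the elongation cycle, measured 244, 246 and 244 CPM in controls, 260.4, 276.5 and 270.5 CPM with TRAM2-KO1 and 265, 268 and 274 CPM with TRAM2-KO2. It rose with both guides, by 0.14 on the log2 scale each time (adjusted p = 0.0338 and 0.026). With TRAM2-KO2 the elongases ELOVL1 (0.16, adjusted p = 0.024) and ELOVL7 (0.28, adjusted p = 0.0312) also rose. With TRAM2-KO1 these had 0.11 (adjusted p = 0.124) and 0.21 (adjusted p = 0.108), and their differences between the guides did not pass the test. With the GC trend removed ELOVL1 also passed with TRAM2-KO1, at 0.17 (adjusted p = 0.0113), and with no filter on low counts ELOVL7 did, at 0.22 (adjusted p = 0.0495). Leaving out any 1 control ended the calls of HACD2, ELOVL1 and ELOVL7, with adjusted p values up to 0.166, 0.0961 and 0.128. Those with TRAM2-KO2 also ended without TRAM2-KO2 A or B, at up to 0.0785, 0.0792 and 0.120, and that of HACD2 without TRAM2-KO2 C, at 0.108. The call of HACD2 with TRAM2-KO1 ended as well without TRAM2-KO1 B or C or TRAM2-KO2 B or C, at up to 0.128.

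Of 8 tested genes among LXR targets and genes of sterol efflux and storage, 1 rose with TRAM2-KO1, where 0.753% of all genes did. This was LPCAT3, an acyltransferase of phospholipids (0.20, adjusted p = 0.0464), with 0.15 (adjusted p = 0.120) for TRAM2-KO2. Its call ended without any 1 library other than TRAM2-KO1 A, at an adjusted p of up to 0.187. With transcript length offsets in the fit, no call of ERLIN1, ERLIN2, HACD2, ELOVL1, ELOVL7 or LPCAT3 passed, the smallest adjusted p being 0.0792 for ERLIN1 with TRAM2-KO2. The fold change of ERLIN2 with TRAM2-KO1 was then smaller, at -0.07, whereas ERLIN1 had -0.23 and -0.24 with the 2 guides, ERLIN2 -0.17 with TRAM2-KO2, HACD2 0.12 and 0.16, ELOVL1 0.18 and ELOVL7 0.32 with TRAM2-KO2, and LPCAT3 0.26 with TRAM2-KO1. Counts of reads were too low to test 4 genes of that list, among them ABCA1 and ABCG1, the exporters of cholesterol. In the 15 genes of isoprenoid branches and partners of the sterol enzymes 0 rose and 0 fell by edgeR with either guide, with 4 higher and 0 lower (TRAM2-KO1) and 1 higher and 1 lower (TRAM2-KO2) at an unadjusted p under 0.05. Of the 16 tested genes of fatty acid oxidation 0 rose and 0 fell by edgeR, with 2 higher and 1 lower (TRAM2-KO1) and 1 higher and 1 lower (TRAM2-KO2) at an unadjusted p under 0.05. Over all genes that p gave 8.51% higher and 10.0% lower with TRAM2-KO1 and 6.84% and 8.18% with TRAM2-KO2, so all these counts but the 4 were near the background. The medians of these lists were 0.07 and 0.04 with TRAM2-KO1 and 0.04 and 0.01 with TRAM2-KO2.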

How the data were processed

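Poly(A)+ RNA of 9 libraries (3 groups of 3, grouped by the sample labels) was sequenced by the authors with a TruSeq kit. The series text names other conditions (vector and overexpression), and the sample labels were followed. Per the labels, cutadapt (adapter trimming) and then Salmon were run by the authors. Which versions, transcript release and build they used is not given in the sources used here. Salmon gave the deposited estimated counts of reads per transcript, not normalised by the authors, and the deposited TPM, which the authors' run of Salmon scaled over all transcripts of a library.

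Estimated counts were summed per gene of GENCODE release 44 on GRCh37 (97.5% of transcripts had a gene) and rounded. Genes passing edgeR's filterByExpr (minimum count 10) were scaled by TMM and tested over all 9 libraries with the quasi-likelihood test of edgeR 4.0.16 in R 4.3.3, two-sided, with Benjamini-Hochberg adjustment over 15139 genes. "Rose" and "fell" mean an adjusted p under 0.05; the study's limit of 0.5 (log2) is a second count. CPM uses TMM-adjusted totals. GC content is that of the longest transcript. The common biological coefficient of variation was 5.86%. The procedure was tested on simulated data.

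Alternatives were DESeq2 1.42.0, DESeq2 size factors, other filters, only the groups compared, protein-coding transcripts, transcript length offsets, a GC trend removed per library, a replicate block and each library left out. Values by library are given for members past the test and for SREBF1, SREBF2, SCAP, INSIG1, HMGCS1, SQLE, FASN and SCD, and up to 4 genes past the test are named from each other list. The members and lists were chosen with earlier results of these data known. Some items, among them results of some genes of the pathway, are not reported here.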

Additional observations from a re-analysis of the deposited data

How the results depend on the processing

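TRAM2 kept its direction and call under every alternative. For the members with TRAM2-KO1, 1 rose with DESeq2 size factors, with protein-coding transcripts only and with the replicate block, and 0 with the GC trend removed, with that and the block, with transcript length offsets and with only the groups compared. In these fits 434, 362, 404, 526, 470, 112 and 286 of all genes passed, in the same order, against 440 in the main fit. With no filter on low counts 1 fell, where 725 of all genes passed. Leaving out 1 library gave 0 to 5 that rose, 0 to 4 that fell and a median of 0.036 to 0.070 (log2). Of all genes 241 to 1952 then passed. With TRAM2-KO2, 2 rose with the GC trend removed and 1 with that and the block, where 1073 and 971 of all genes passed. Between the guides, 1 was higher by DESeq2, 1 with the GC trend removed and 2 with no filter, where 594, 549 and 683 of all genes passed. The median was -0.014 with the GC trend removed, with or without the block. Leaving out 1 library gave 0 to 5 higher, 0 to 6 lower and a median of -0.065 to -0.023, where 114 to 1828 of all genes passed. The largest counts came without TRAM2-KO1 A. Beyond what the fits show, the cause was not tested.

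Correlations of deviations from the group means ran from -0.09 to 0.11 for libraries of the same letter and from -0.15 to 0.13 for different letters. No pairing by letter was thus seen. Differences in GC content between libraries also enter these deviations, so the values cannot show whether the letters mark parallel cultures. With the replicate block CYP51A1 (adjusted p = 0.0746), ERLIN2 (0.0746) and LPCAT3 (0.0809) lost their calls with TRAM2-KO1, and 404, 568 and 275 genes passed in the 3 comparisons, against 440, 639 and 344.

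Other calls with TRAM2-KO1 were lost as follows, with adjusted p values. CYP51A1 lost its call with DESeq2 size factors (0.0526), protein-coding transcripts (0.0527), length offsets (0.219) and the GC trend removed with the block (0.0921). With that last fit ELOVL5 (0.108) and HACD2 (0.0553) lost theirs, and with length offsets ELOVL5 did (0.260). With only the groups compared CYP51A1 (0.102), ELOVL5 (0.0870), ERLIN1 (0.0698), ERLIN2 (0.119), HACD2 (0.0906) and LPCAT3 (0.0900) lost theirs. LPCAT3 lost its call with protein-coding transcripts (0.254) and ERLIN2 with no filter (0.0740). With TRAM2-KO2, ELOVL1 (0.0519) and ELOVL7 (0.0792) lost theirs with protein-coding transcripts. ELOVL1 gained a call with TRAM2-KO1 with the GC trend removed and the block (0.0235), and between the guides SCD gained one with the GC trend removed (0.0445) and FASN with no filter (0.00835).

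Genes past an adjusted p of 0.05 ranged from 112 to 1952 with TRAM2-KO1, 155 to 1073 with TRAM2-KO2 and 44 to 1828 between the guides, the fewest with transcript length offsets each time.

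Signs changed only in values that did not pass the test in either fit. With TRAM2-KO1 against control, SCAP was 0.026 with transcript length offsets, and SREBF2 ran from -0.010 to 0.078 as libraries were left out. With TRAM2-KO2 against control, HMGCS1 was 0.0054 with no filter and 0.042 with length offsets and ran from -0.031 to 0.015 as libraries were left out. FASN was 0.0029 with the GC trend removed and 0.0038 with the block added, and ran from -0.075 to 0.037 as libraries were left out. SCAP was 0.0069 with length offsets. Between the guides SCAP was -0.012 with the GC trend removed, -0.013 with the block added, and -0.019 with length offsets. With the GC trend removed, ERLIN1 was 0.0060, ERLIN2 0.022 and ELOVL1 -0.0054, and with the block added 0.0061, 0.022 and -0.0050. Libraries left out moved ERLIN1 from -0.053 to 0.012 and HACD2 from -0.023 to 0.025.

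All values carry 3 libraries per group. Intervals cover the spread the model expresses, not separate rounds of editing. The lowest member, TM7SF2, had 46 to 66 reads in a library and an SE of 0.15 with either guide. A change of 0.13, as in CYP51A1 and ELOVL5 with TRAM2-KO1, would be smaller than that SE.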

Other observations

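PPARA, the nuclear receptor that drives fatty acid oxidation, was named after its values were seen. In the order of libraries A, B and C it measured 37.2, 37.7 and 11 CPM in controls, 27.9, 2.7 and 24.4 CPM with TRAM2-KO1 and 15.3, 3.0 and 3.0 CPM with TRAM2-KO2. Libraries of the same group differed widely, and neither comparison with control passed the test (adjusted p = 0.688 and 0.244 by edgeR).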
